A study of Mus musculus with 9 samples.

Results

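TGF-β signals through a short chain of proteins, and the genes of that chain were followed in splenic regulatory T cells (Tregs) with and without the chaperone gp96. The genes were chosen by name, as the entries of the deposited expression table for the TGF-β receptors *Tgfbr1*, *Tgfbr2* and *Tgfbr3*, the signal transducers *Smad2*, *Smad3* and *Smad4*, the inhibitors *Smad7* and *Smurf2*, and the nuclear repressors *Ski* and *Skil*. The choice was made with earlier results of these data known. All 10 were found, among 25500 entries, and all 10 passed the filter on low values. KO mice carried *Foxp3*-eGFP-Cre-ERT2 and *Hsp90b1* fl/fl, so that tamoxifen deleted *Hsp90b1*, the gene of gp96, in cells that express *Foxp3*, while in WT mice that Cre was combined with *Hsp90b1* WT/WT. Both were C57BL/6 mice of 8 to 12 weeks, and GFP+ Tregs were sorted from their spleens at the end of 10 days of tamoxifen (75 mg/kg). RNA-Seq gave 5 KO libraries (KO 1 to KO 5) and 4 WT libraries (WT 1 to WT 4), and expression was deposited as FPKM, that is, as fragments corrected for the length of the gene and for the depth of the library. KO 2 to KO 5 were compared with WT 1 to WT 4, which gives 4 libraries per genotype, as many as the mice described for each. Values with KO 1 and without WT 1 were set beside that comparison.

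In T cells as elsewhere, TGF-β binds the type II receptor TGFBR2, which recruits and activates the type I kinase TGFBR1, and TGFBR1 phosphorylates SMAD2 and SMAD3. These join SMAD4, enter the nucleus and change transcription, while SMAD7 and the ubiquitin ligase SMURF2 act on the receptors, and SKI and SKIL (also called SnoN) hold SMAD complexes in a repressed state. *Smad7* and *Skil* are themselves switched on by TGF-β in many cells, which makes them feedback inhibitors, and the pathway is known for supporting *Foxp3* in Tregs.

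The libraries were checked first. *Hsp90b1* measured 1.77 to 3.11 FPKM in the 5 KO libraries, against 44.4 to 62.9 FPKM in the 4 WT libraries, and *Foxp3* measured 55.0 to 110 FPKM in KO and 83.0 to 106 FPKM in WT, with the lowest value in KO 1. Reads recovered from FPKM summed to 12068195 to 24522263 per KO library, the highest being KO 1, and to 13889346 to 16666471 per WT library. KO 1 and WT 1 stood apart from the other 7 libraries. The first principal component of log2(FPKM + 1), with 58.6% of the variance, placed KO 1 at −67.6 and WT 1 at −69.9, and the others between 8.88 and 26.3. *Malat1*, a nuclear RNA, measured 30.6 FPKM in KO 1 and 24.9 FPKM in WT 1, and 182 to 374 FPKM in the others. KO 1 is not in the comparison of 8 libraries and WT 1 is, so that comparison is not balanced for whatever sets these libraries apart, and leaving out both gives a comparison of 7 libraries.

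Of the 10 genes, 5 were lower in KO Tregs and 0 were higher in limma, nor was any higher at an unadjusted p under 0.05 or by limma-voom. *Skil*, *Smad7*, *Tgfbr3*, *Tgfbr1* and *Smurf2* fell, and *Tgfbr2*, *Smad2*, *Smad3*, *Smad4* and *Ski* did not pass the test. The test was limma with a trend on log2(FPKM + 1), with p-values adjusted by Benjamini-Hochberg over all 12237 genes tested and called under 0.05. It called 6.68% of all genes lower and 6.58% higher. With all 9 libraries the same 5 genes were lower and 0 higher, where 3.55% of all genes were lower and 3.21% higher. With the 7 libraries the same 5 were again lower and 1, *Smad4*, was higher, where 17.1% of all genes were lower and 19.5% higher. In each of the same 5 genes every KO library lay below every WT library, all 9 counted, which held for 5.69% of all genes tested, and none of the 10 had every KO library above every WT library, against 6.1% of all genes. The median log2 fold change of the 10 genes was −0.47 in the 8 libraries, −0.39 in all 9 and −0.30 in the 7, against 0.01, 0.02 and 0.02 for all genes. The 10 genes were chosen with earlier results of these data known, so their difference from all genes is a description, not a test. The values are RNA levels of sorted populations, so fewer cells of a type and less RNA per cell cannot be told apart.

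**Figure D1:**
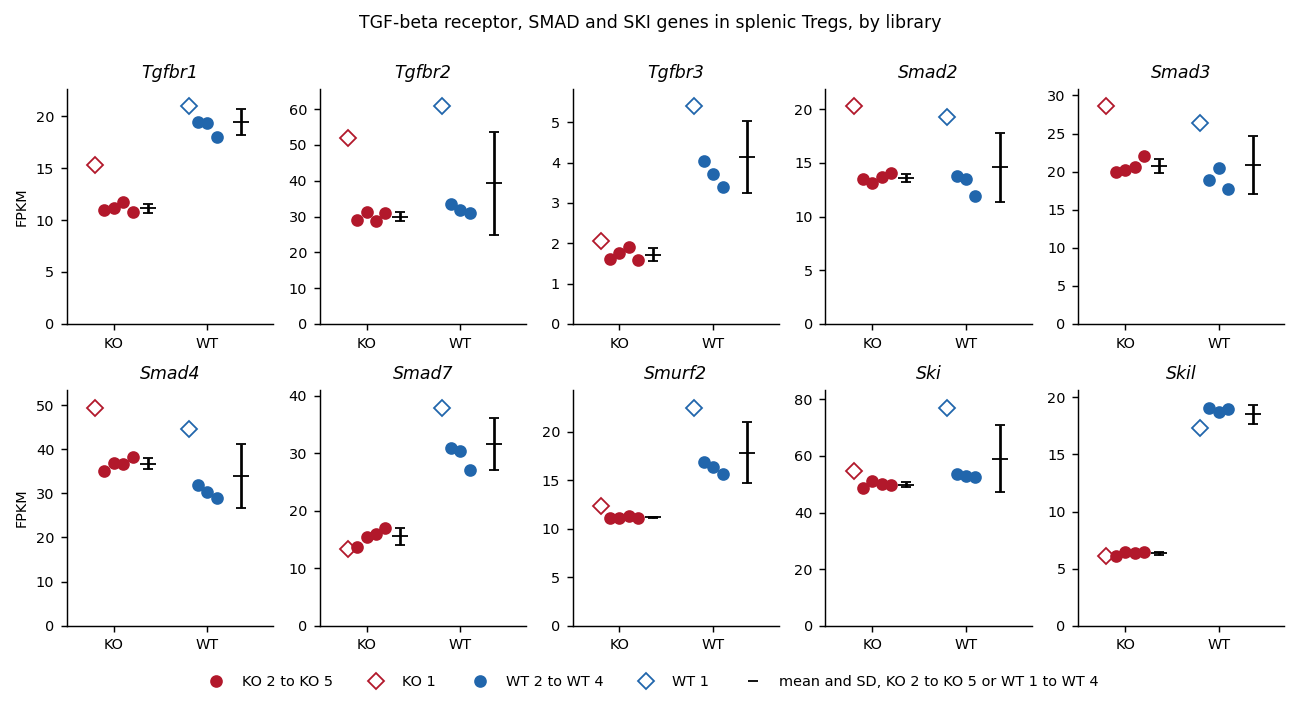
FPKM (linear axis from 0) of the 10 genes in each KO library (left, red) and each WT library (right, blue). Open diamonds are KO 1 and WT 1, and black bars are the mean and SD of KO 2 to KO 5 or of WT 1 to WT 4. For *Skil*, *Smad7*, *Tgfbr1*, *Tgfbr3* and *Smurf2* no KO point reaches a WT point, and for *Tgfbr2*, *Smad2*, *Smad3* and *Smad4* the 2 open diamonds lie above the other points of both genotypes.

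The promoters are shown for *Tgfbr1*, a receptor gene that fell, for its partner *Tgfbr2*, which was not called, and for *Smurf2*, which fell, so that the sequence context of called and not called genes stands side by side. Promoters, from 250 bases before to 50 bases after the start, come from a RefSeq table (GRCm38.p6) in which 5 of the 10 genes were matched. They are printed 5′ to 3′ on the strand of the gene, and capitals mark CAGAC or its reverse complement GTCTG, the core of the CAGA motif to which SMAD3 and SMAD4 bind.
Tgfbr1, chr4:47352972-47353271, plus strand: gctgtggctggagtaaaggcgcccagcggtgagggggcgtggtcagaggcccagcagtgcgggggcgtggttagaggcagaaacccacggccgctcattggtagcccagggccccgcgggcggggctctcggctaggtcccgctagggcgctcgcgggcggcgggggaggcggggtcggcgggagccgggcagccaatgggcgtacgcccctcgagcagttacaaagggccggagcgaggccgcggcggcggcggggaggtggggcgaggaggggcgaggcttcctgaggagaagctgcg
Tgfbr2, chr9:116175314-116175613, minus strand: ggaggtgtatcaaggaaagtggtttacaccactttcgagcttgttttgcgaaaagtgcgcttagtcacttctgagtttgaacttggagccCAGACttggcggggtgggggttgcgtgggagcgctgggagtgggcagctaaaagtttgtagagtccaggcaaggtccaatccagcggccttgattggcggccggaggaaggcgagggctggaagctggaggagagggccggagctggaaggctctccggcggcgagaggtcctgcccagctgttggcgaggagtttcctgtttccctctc
Smurf2, chr11:106920666-106920965, minus strand: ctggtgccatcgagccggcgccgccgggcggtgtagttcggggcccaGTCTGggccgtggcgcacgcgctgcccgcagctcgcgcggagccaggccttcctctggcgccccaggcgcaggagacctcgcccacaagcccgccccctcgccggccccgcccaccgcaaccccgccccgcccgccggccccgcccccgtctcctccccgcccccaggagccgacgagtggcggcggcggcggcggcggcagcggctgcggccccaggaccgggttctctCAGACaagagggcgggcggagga

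The *Smurf2* window holds 2 matches, at −203 and 28 from the start, the *Tgfbr2* window holds 1 match, at −160, and the *Tgfbr1* window holds 0. On both strands the motif occurs in 49.6% of all 32851 promoters of the same length (16292), so its presence in a window is common. The *Ski* and *Smad3* windows also hold 0 matches. *Tgfbr3*, *Smad2*, *Smad4*, *Smad7* and *Skil* had no matched promoter, so their sequences were not examined.

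*Tgfbr1* encodes the type I receptor kinase. It measured 15.3, 10.9, 11.2, 11.7 and 10.7 FPKM in KO 1 to KO 5, against 21.0, 19.5, 19.4 and 18.0 FPKM in WT 1 to WT 4. The groups did not overlap, and the nearest values were those of KO 1 and WT 4. KO 2 to KO 5 averaged 11.1 ± 0.424 FPKM and WT 1 to WT 4 averaged 19.5 ± 1.23 FPKM (SD, n = 4 each), a level 42.7% lower in KO. In limma the change was −0.75 ± 0.07 on the log2 scale (SE, adjusted p = 5.1e-04), −0.67 with all 9 libraries (adjusted p = 0.00811) and −0.72 with the 7 (adjusted p = 5.1e-05).

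*Tgfbr2* encodes the type II receptor that binds the ligand. It measured 52.1, 28.9, 31.2, 28.7 and 30.9 FPKM in KO 1 to KO 5, against 60.9, 33.5, 31.9 and 31.0 FPKM in WT 1 to WT 4. KO 1 and WT 1 were the highest of their genotypes by far, at 1.74 times the mean of KO 2 to KO 5 and 1.89 times the mean of WT 2 to WT 4, and among the other 7 libraries KO 3 (31.2) lay above WT 4 (31.0). Its log2 fold change was −0.33 with a 95% interval from −0.80 to 0.15 (adjusted p = 0.296), −0.17 with all 9 libraries and −0.10 (−0.21 to 0.01) with the 7, where the adjusted p was 0.125. Within libraries, the log2 difference of *Tgfbr1* minus *Tgfbr2* was −1.35 ± 0.0965 in KO 2 to KO 5 and −0.92 ± 0.381 in WT 1 to WT 4 (SD, n = 4 each). That ratio differed by −0.43 between genotypes (two-sided exact permutation p = 0.143), with WT 1 (−1.49) below the KO values other than that of KO 1 (−1.71). With all 9 libraries it differed by −0.50 (exact permutation p = 0.0794). With the 7 it differed by −0.62 (exact permutation p = 0.0571, the smallest that 4 against 3 libraries can give).

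*Tgfbr3*, the coreceptor betaglycan that presents ligand to TGFBR2, was the least expressed of the 10 and rested on 155 to 511 reads per library. It measured 2.05, 1.60, 1.77, 1.91 and 1.57 FPKM in KO 1 to KO 5, against 5.41, 4.05, 3.72 and 3.40 FPKM in WT 1 to WT 4. No KO library reached a WT library. Means were 1.71 ± 0.158 FPKM in KO 2 to KO 5 and 4.14 ± 0.883 FPKM in WT 1 to WT 4 (SD, n = 4 each), 58.6% lower in KO and, against WT 2 to WT 4 alone, 53.9% lower. The log2 fold change was −0.91 ± 0.13 (SE, limma adjusted p = 0.00326), and with 1 added to every value it understates the change of a gene at this level. An exon of *Tgfbr3* overlaps *Gm43422* on the same strand, and an exon of *Smurf2* overlaps *Gm27322*, so reads there could have been assigned to either gene.

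The receptor-activated SMADs did not pass the test. *Smad2* measured 20.3, 13.5, 13.1, 13.7 and 14.0 FPKM in KO 1 to KO 5, against 19.2, 13.8, 13.5 and 11.9 FPKM in WT 1 to WT 4. *Smad3* measured 28.6, 20.0, 20.2, 20.5 and 22.1 FPKM in KO 1 to KO 5, against 26.3, 19.0, 20.4 and 17.7 FPKM in WT 1 to WT 4. In both genes the libraries overlapped and KO 1 and WT 1 were the 2 highest. The log2 fold change of *Smad2* was −0.08 (95% interval −0.38 to 0.23) and that of *Smad3* 0.01 (−0.27 to 0.28), and without WT 1 the intervals narrowed to −0.08 to 0.19 for *Smad2* and −0.01 to 0.25 for *Smad3*. The within-library difference of *Smad3* minus *Smad2* was 0.57 ± 0.0371 in KO 2 to KO 5 and 0.49 ± 0.0665 in WT 1 to WT 4 on the log2 scale (exact permutation p = 0.143).

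*Smad4*, the partner that SMAD2 and SMAD3 share, depended on how WT 1 was treated. It measured 49.4, 35.1, 36.8, 36.7 and 38.2 FPKM in KO 1 to KO 5, against 44.6, 31.9, 30.4 and 28.9 FPKM in WT 1 to WT 4. KO 2 to KO 5 all lay above WT 2 to WT 4, and WT 1 lay above KO 2 to KO 5 and below KO 1. The log2 fold change was 0.13 ± 0.13 in the 8 libraries (SE, limma adjusted p = 0.514) and 0.21 with all 9 (adjusted p = 0.597). Without WT 1 it was 0.26 ± 0.04 with an adjusted p of 0.00345, a level of 36.7 ± 1.28 FPKM in KO 2 to KO 5 (n = 4) against a mean of 30.4 FPKM in WT 2 to WT 4 (n = 3). With all 9 libraries kept and a term for KO 1 and WT 1 it was 0.24 (limma adjusted p = 0.00315).

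*Smad7*, the inhibitory SMAD that blocks the type I receptor, measured 13.3, 13.7, 15.4, 16.0 and 17.0 FPKM in KO 1 to KO 5, against 37.9, 30.9, 30.4 and 27.2 FPKM in WT 1 to WT 4. The highest KO library lay well below the lowest WT library, and WT 1 was the highest of all 9. KO 2 to KO 5 averaged 15.5 ± 1.40 FPKM and WT 1 to WT 4 averaged 31.6 ± 4.54 FPKM (SD, n = 4 each), a level 50.9% lower in KO. On the log2 scale the fold change was −0.97 ± 0.11 (SE, limma adjusted p = 0.00144), −1.02 with all 9 libraries and −0.89 with the 7, and it passed the test in each.

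*Smurf2*, a ubiquitin ligase that SMAD7 brings to the receptors, measured 12.4, 11.1, 11.1, 11.3 and 11.1 FPKM in KO 1 to KO 5, against 22.5, 16.9, 16.4 and 15.7 FPKM in WT 1 to WT 4. The 4 KO libraries other than KO 1 were nearly identical, with a coefficient of variation of 0.896%, the lowest of the 10 genes in KO 2 to KO 5. Its log2 fold change was −0.62 ± 0.11 (SE, limma adjusted p = 0.00997), −0.59 with all 9 libraries and −0.51 with the 7. The fall of the pair was compared within libraries. The within-library log2 difference of *Smad7* minus *Smurf2* was 0.44 ± 0.125 in KO 2 to KO 5 and 0.79 ± 0.0590 in WT 1 to WT 4, and the 5 KO values (0.09 to 0.58) lay below the 4 WT values (0.73 to 0.85). That difference of −0.36 had a two-sided exact permutation p of 0.0286, which misses 0.05 when adjusted over the 4 ratios tested (0.0571). The unadjusted p is the smallest that 4 against 4 libraries can give, so no ratio could pass that adjustment on its own. With all 9 libraries the difference was −0.42 (exact p = 0.0159, adjusted 0.0317).

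*Skil* showed the largest fall of the 10 genes. This repressor measured 6.14, 6.14, 6.47, 6.37 and 6.42 FPKM in KO 1 to KO 5, against 17.3, 19.1, 18.8 and 19.0 FPKM in WT 1 to WT 4. All 9 libraries stayed close to their own genotype, KO 1 included, at 0.968 times the mean of KO 2 to KO 5, and WT 1 included, at 0.914 times the mean of WT 2 to WT 4. The mean was 6.35 ± 0.144 FPKM in KO 2 to KO 5 and 18.5 ± 0.828 FPKM in WT 1 to WT 4 (SD, n = 4 each), a level 65.8% lower in KO, from 848 to 3106 reads per library. The log2 fold change was −1.41 ± 0.06 (SE, limma adjusted p = 2.3e-05), and by p *Skil* ranked 7th of 12237 genes, 3rd with all 9 libraries and 4th with the 7. *Skil* lies on chromosome 3 at 31095058 to 31122577 (GRCm38).

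*Ski*, the close relative of *Skil*, was the most expressed of the 10 genes. It measured 54.7, 48.7, 51.1, 50.04 and 49.7 FPKM in KO 1 to KO 5, against 77.1, 53.7, 53.1 and 52.5 FPKM in WT 1 to WT 4. KO 2 to KO 5 all lay below the WT libraries by a small step, KO 1 lay among them, and WT 1 stood far above. Its log2 fold change was −0.22 (95% interval −0.52 to 0.08, adjusted p = 0.272), −0.19 with all 9 libraries and −0.09 (−0.16 to −0.02) with the 7, where the adjusted p was 0.0513. The balance of the pair was measured within libraries. *Skil* minus *Ski* was −2.79 ± 0.0131 in KO 2 to KO 5 and −1.60 ± 0.326 in WT 1 to WT 4 on the log2 scale, and the 5 KO values (−2.96 to −2.77) did not overlap the 4 WT values (−2.09 to −1.42). The difference of −1.19 had an exact permutation p of 0.0286 (0.0571 adjusted over 4 ratios), and was −1.22 with all 9 libraries (exact p = 0.0159, adjusted 0.0317) and −1.35 with the 7.

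For each of the 5 called genes and for *Ski* the two-sided exact permutation p of the 8 libraries was 0.0286, the smallest that 4 against 4 libraries can give. The smallest is 0.0159 for 5 against 4 and 0.0571 for 4 against 3, so the 7 libraries cannot reach 0.05 gene by gene. The labels do not tie the 5 KO and 4 WT libraries to single mice, so these p-values measure the spread between libraries, which may in part be technical.

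**Figure D2:**
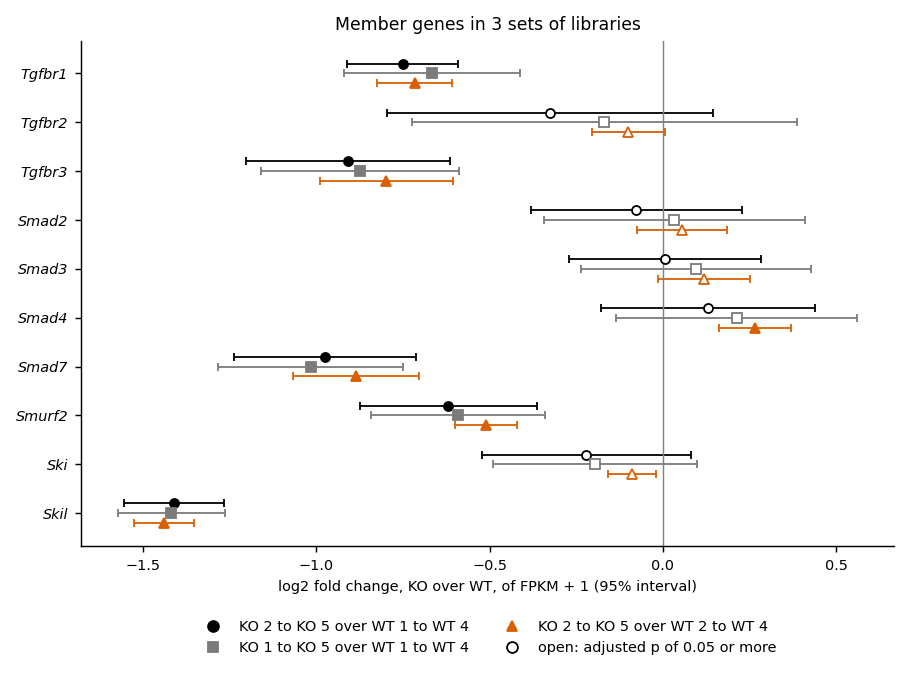
Log2 fold change of FPKM + 1, KO over WT, with its 95% interval from limma, for the 10 genes (y axis) in the 8 libraries (circles), all 9 (squares) and the 7 without KO 1 and WT 1 (triangles). Filled marks have an adjusted p under 0.05. The 5 called genes lie at −0.51 or lower in all 3 sets, and *Smad4* is filled only in the 7 libraries, at 0.26.

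KO 1 and WT 1 differed from the other libraries of their genotype to unequal degrees across the 10 genes. In KO 1, *Tgfbr2*, *Smad2*, *Smad3*, *Smad4* and *Tgfbr1* were 0.78, 0.55, 0.45, 0.42 and 0.42 higher on the log2(FPKM + 1) scale than in KO 2 to KO 5, where the median gene was 0.10 higher. In WT 1, *Tgfbr2*, *Smad4*, *Ski*, *Smad2*, *Smad3*, *Tgfbr3* and *Smurf2* were 0.90, 0.54, 0.53, 0.53, 0.45, 0.44 and 0.44 higher than in WT 2 to WT 4, where the median gene was 0.08 higher. *Skil* was lower in both, by −0.04 in KO 1 and −0.12 in WT 1, and *Smad7* was lower in KO 1 (−0.21) and higher in WT 1 (0.35). For the 5 genes not called, the coefficient of variation was 18.4% to 36.6% in WT 1 to WT 4 and 1.18% to 7.75% in WT 2 to WT 4, so most of the WT spread of these genes came from 1 library. It was 1.97% to 4.54% in KO 2 to KO 5.

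**Figure D3:**
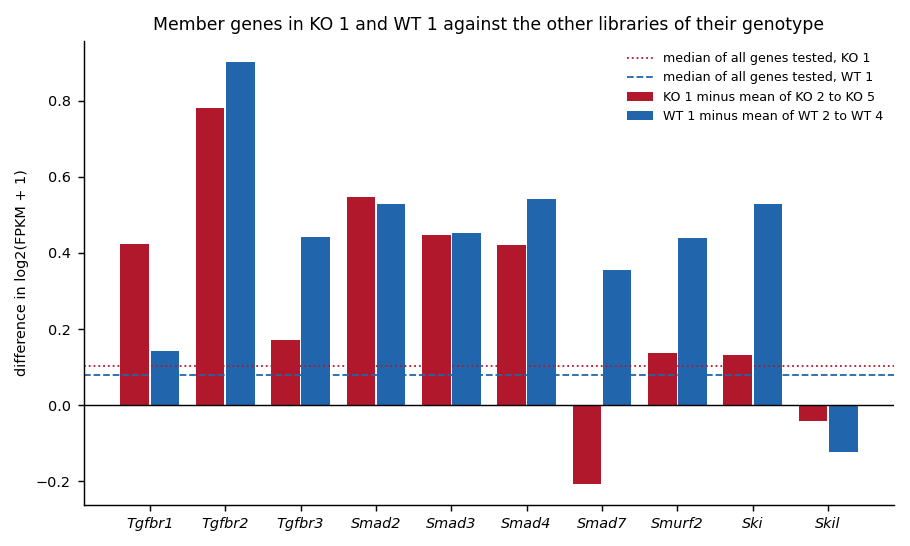
Difference in log2(FPKM + 1) between KO 1 and the mean of KO 2 to KO 5 (red bars) and between WT 1 and the mean of WT 2 to WT 4 (blue bars) for the 10 genes, with the median of all genes tested as a dotted line for KO 1 (0.10) and a dashed line for WT 1 (0.08). *Tgfbr2* has the tallest bars, 0.78 in KO 1 and 0.90 in WT 1, and *Skil* is below 0 in both.

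FPKM are per length, so levels can be ordered between genes, though the annotation that set those lengths was not given. The order of genes with close means may depend on it. In KO 2 to KO 5 the order of the means was *Ski* (49.9 FPKM), *Smad4* (36.7), *Tgfbr2* (29.9), *Smad3* (20.7), *Smad7* (15.5), *Smad2* (13.6), *Smurf2* (11.2), *Tgfbr1* (11.1), *Skil* (6.35) and *Tgfbr3* (1.71). Only *Smad7* with *Smad2*, and *Smurf2* with *Tgfbr1*, overlapped as neighbours. In WT 2 to WT 4 the order was *Ski* (53.1 FPKM), *Tgfbr2* (32.1), *Smad4* (30.4), *Smad7* (29.5), *Smad3* (19.0), *Skil* (19.0), *Tgfbr1* (18.9), *Smurf2* (16.3), *Smad2* (13.1) and *Tgfbr3* (3.72). Here *Tgfbr2*, *Smad4* and *Smad7* overlapped as neighbours, and so did *Smad3*, *Skil* and *Tgfbr1*. *Skil*, below *Smad3* and *Tgfbr1* in all 5 KO libraries, was thus level with both in WT 2 to WT 4, and below both in WT 1 (17.3 FPKM, against 26.3 for *Smad3* and 21.0 for *Tgfbr1*).

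The rest of the pathway was read from 8 lists of 143 genes, of which 142 were found and 102 tested. Of these 102, 15 were lower (14.7%, against 6.68% of all genes), 10 were higher (9.8%, against 6.58%) and 77 were not called, with a median log2 fold change of 0.03. With all 9 libraries the counts were 8 lower (7.8%, against 3.55%) and 7 higher (6.8%, against 3.21%) of 103, and with the 7 libraries 23 (22.8%, against 17.1%) and 29 (28.7%, against 19.5%) of 101. The lists were written with earlier results of these data known, and genes that did not pass the filter, among them most ligand genes, were not tested.

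Of 8 genes for ligands and their latency, 3 were lower and 0 higher in limma (0 at an unadjusted p under 0.05, 1 by limma-voom), against 1 and 0 with all 9 libraries and 3 and 2 with the 7. *Itgb8*, whose integrin frees TGF-β from its latent form, averaged 2.27 ± 0.168 FPKM in KO 2 to KO 5 and 4.85 ± 0.617 FPKM in WT 1 to WT 4 (log2 fold change −0.83), and every KO library lay below every WT library. *Tgfb1*, the ligand gene, averaged 32.3 ± 0.932 FPKM in KO 2 to KO 5, 51.6 FPKM in KO 1 and 46.3 ± 9.46 FPKM in WT 1 to WT 4, with a limma adjusted p of 0.0453 that became 0.374 with all 9 libraries. Its log2 fold change was −0.49 in the 8 libraries, −0.36 with all 9 and −0.36 with the 7, where it was called. *Lrrc32*, which encodes the GARP anchor of latent TGF-β on Tregs, averaged 46.6 ± 11.9 FPKM in KO 2 to KO 5, 20.7 FPKM in KO 1 and 75.1 ± 12.4 FPKM in WT 1 to WT 4. Its log2 fold change was −0.69 (limma adjusted p = 0.0467), −0.91 with all 9 libraries, where the call was lost (adjusted p = 0.103), and −0.80 with the 7 (adjusted p = 0.00911).

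Of 5 other receptor genes tested, 2 were lower and 1 higher (2 and 2 with the 7 libraries). *Bmpr2*, a type II receptor for BMPs, averaged 1.25 ± 0.0785 FPKM in KO 2 to KO 5 and 2.75 ± 0.593 FPKM in WT 1 to WT 4 (−0.73), and was the only one also called with all 9 libraries. *Acvr1b*, the type I activin receptor, averaged 9.50 ± 0.200 FPKM in KO 2 to KO 5 and 11.5 ± 0.779 FPKM in WT 1 to WT 4 (−0.25). *Acvr2a*, a type II activin receptor, was higher at 4.25 ± 0.643 FPKM in KO 2 to KO 5, against 2.43 ± 0.412 FPKM in WT 1 to WT 4, but measured 2.25 FPKM in KO 1.

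Of 14 other SMADs, adaptors and phosphatases, 2 were lower and 0 higher in limma, in the 8 libraries and in all 9 (2 higher at an unadjusted p under 0.05 and 2 by limma-voom in the 8), and 3 were lower and 4 higher with the 7. Both are membrane proteins that bind receptor-activated SMADs and are switched on by TGF-β. *Pmepa1* measured 3.33, 2.24, 2.44, 2.41 and 2.43 FPKM in KO 1 to KO 5, against 11.8, 7.81, 8.01 and 8.33 FPKM in WT 1 to WT 4. It fell by 1.55 on the log2 scale. With 1 added to every value this understates the change, as it does for *Itgb8*, *Bmpr2* and other genes of a few FPKM. *Ldlrad4* averaged 18.3 ± 0.525 FPKM in KO 2 to KO 5 and 27.1 ± 1.35 FPKM in WT 1 to WT 4 (−0.55), again without overlap. *Ctdsp1*, a SMAD phosphatase, was not called (0.37, adjusted p = 0.199) but was with the 7 libraries.

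Of 20 ubiquitin ligases and deubiquitinases of the pathway, 1 was lower and 1 higher (1 and 3 with the 7 libraries), and only *Wwp1* was called with all 9 libraries. *Wwp1*, a ligase of the same family as *Smurf2*, measured 16.5, 16.0, 15.3, 16.1 and 18.0 FPKM in KO 1 to KO 5, against 7.17, 7.92, 7.30 and 7.79 FPKM in WT 1 to WT 4. It rose by 1.02 on the log2 scale while *Smurf2* fell by 0.62, in both genes with no overlap between the genotypes. *Nedd4l*, another ligase of that family, was lower at 0.532 ± 0.115 FPKM in KO 2 to KO 5, against 1.19 ± 0.197 FPKM in WT 1 to WT 4. It passed the filter through the 4 WT libraries alone, with 0 of 4 KO libraries above 1 FPKM, so its call is no evidence of its own, and it was not tested with the 7 libraries. *Skp1a* was not called in the 8 libraries (adjusted p = 0.133) but was lower with the 7 (−0.32, limma adjusted p = 0.00456).

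Of 23 nuclear partners, 4 were lower and 2 higher (5 and 7 with the 7 libraries). *Runx3*, a transcription factor that acts with SMADs in T cells, measured 20.8, 19.6, 20.2, 19.4 and 17.8 FPKM in KO 1 to KO 5, against 12.1, 9.33, 9.44 and 9.13 FPKM in WT 1 to WT 4 (0.89). *Myc* averaged 26.5 ± 2.93 FPKM in KO 2 to KO 5 and 47.8 ± 8.18 FPKM in WT 1 to WT 4 (−0.82). These 2 were the only ones of the list called with all 9 libraries, since *Hdac1* (−0.56), *Tfdp1* (−0.51), *Hdac2* (−0.53) and *Ep300* (0.25) were not. *Hdac2* and *Ep300* are named after their values were seen. Of 11 genes of the TAK1 branch, the kinase route that does not use SMADs, 0 passed the test in limma in the 8 libraries or in all 9. In the 8, 3 were lower and 2 higher at an unadjusted p under 0.05, and limma-voom called 1 lower and 2 higher, and with the 7 limma called 3 lower and 3 higher.

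Of 13 genes known to be raised by TGF-β, 4 were lower and 1 higher (4 and 3 with the 7 libraries). Besides *Pmepa1* and *Ldlrad4* these were *Ccr8*, a chemokine receptor, at 5.37 ± 0.944 FPKM in KO 2 to KO 5 and 21.3 ± 3.53 FPKM in WT 1 to WT 4 (−1.81), and *Nt5e*, which encodes CD73, at 18.2 ± 0.361 FPKM in KO 2 to KO 5 and 34.3 ± 2.62 FPKM in WT 1 to WT 4 (−0.88). *Junb*, named after its values were seen, was higher (1.04). *Foxp3* was not called (0.14, adjusted p = 0.344). Of 13 genes known to be lowered by TGF-β in T cells, 2 were lower and 5 higher, 2 and 4 with all 9 libraries, and 5 and 5 with the 7. *Il18r1*, a receptor for IL-18, averaged 92.6 ± 2.44 FPKM in KO 2 to KO 5 and 24.7 ± 1.72 FPKM in WT 1 to WT 4 (1.87), and *S1pr1*, which guides T cells out of lymphoid tissue, averaged 173 ± 2.64 FPKM in KO 2 to KO 5 and 101 ± 26.8 FPKM in WT 1 to WT 4 (0.80). *Gata3* (0.35), *Klf2* (0.98) and *Id2* (0.32) were the other 3 that rose and are named after their values were seen, and *Id2* lost its call with all 9 libraries (adjusted p = 0.127). *Ifng* (−1.14), which passed the filter with 1 of 4 KO and 4 of 4 WT libraries above 1 FPKM, and *Myc* were lower, and *Itgal* was not called (−0.38). *Itgal* was called lower with the 7 libraries (−0.26, limma adjusted p = 0.00172) and not with all 9 (adjusted p = 0.445).

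**Figure D4:**
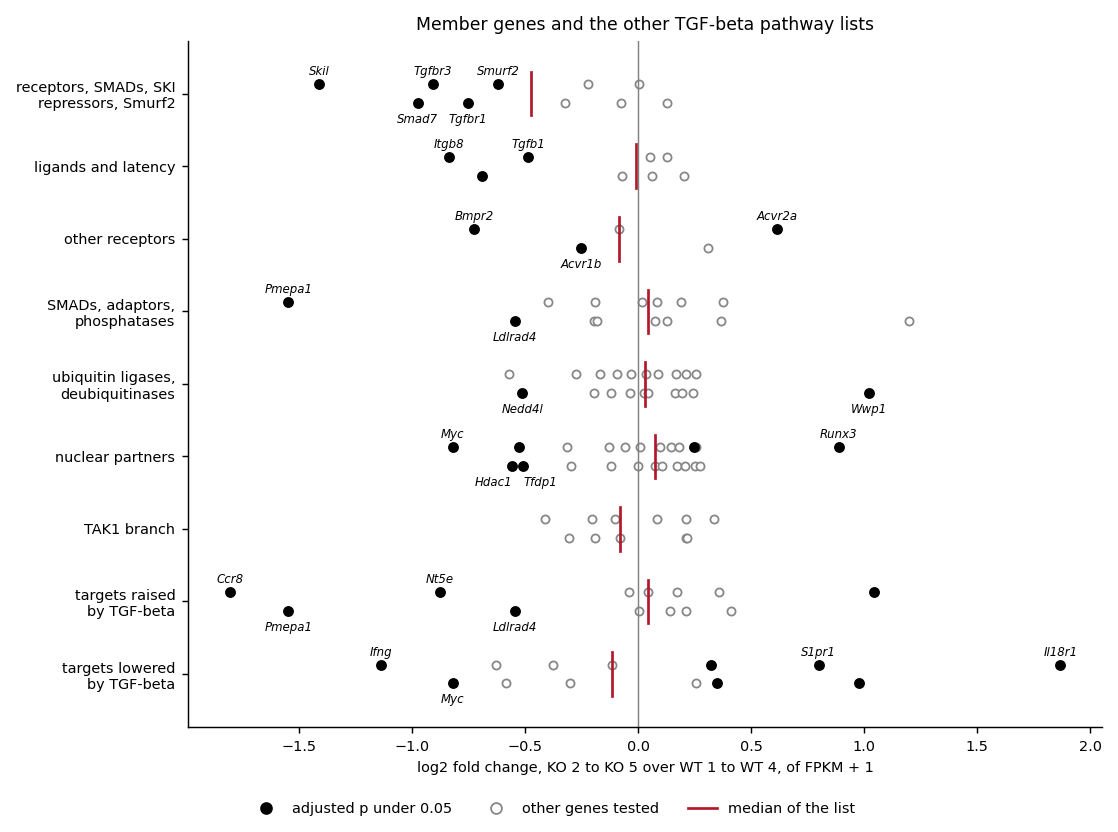
Log2 fold change of FPKM + 1, KO 2 to KO 5 over WT 1 to WT 4, for the 10 genes (first line) and the tested genes of 8 pathway lists. Black points have an adjusted p under 0.05, open points do not, and red bars are list medians. The first line has 5 black points, all to the left of 0, with its median at −0.47, and among the other lists black points lie on both sides.

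Other genes whose libraries ran most closely with the 5 called genes were found by Pearson's r of log2(FPKM + 1) over the 9 libraries, a description in which both the genotype and KO 1 and WT 1 are shared by all genes. They were *Cd200*, *Cd83* and *Cd160* for *Tgfbr1*, *Rragd*, *Gpr83* and *Syp* for *Tgfbr3*, *Foxp1*, *Itih5* and *Mtss1* for *Smad7*, *Igfbp4*, *Bcl2l11* and *Actn1* for *Smurf2*, and *Cep57l1*, *Ctsw* and *Fmnl3* for *Skil*. *Cd200*, for instance, had r = 0.99 with *Tgfbr1* and averaged 14.0 FPKM over the 5 KO and 30.1 FPKM over the 4 WT libraries. Among the 5 called genes r was 0.87 to 0.99 over 10 pairs, among the 5 others 0.44 to 0.97, and between the 2 sets −0.50 to 0.82 over 25 pairs. The 2 sets were split by the genotype contrast in these libraries, so a high r among the called genes was fixed by that choice. In the 7 libraries r of *Tgfbr2* with *Smad2* was −0.0055, against 0.93 in all 9, and r of *Smad3* with *Smad2* was 0.80. There *Ski*, which was not called, had r of 0.92 to 0.94 with the 5 called genes.

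Markers of other cells also moved with the genotype. Of 7 B cell markers tested, limma called 4 lower, *Cd79a*, *Ighm*, *Cd74* and *Pou2af1*. At an unadjusted p under 0.05, 5 were lower, and limma-voom called 2 of 6 lower. In each of these readings 0 were higher. The 13 listed markers summed to 242 to 443 FPKM in KO and 423 to 690 FPKM in WT. *Ighm* alone measured 201 to 360 FPKM in KO and 334 to 570 FPKM in WT. With all 9 libraries limma called 3 B cell markers lower, and with the 7 it called 6. The 8 plasma cell markers summed to 34.2 to 211 FPKM in KO and 288 to 1349 FPKM in WT. *Igkc* alone measured 3.05 FPKM in KO 5, 112 to 162 FPKM in the other KO libraries and 224 to 1207 FPKM in WT. It was not called (limma adjusted p = 0.13). Of 6 plasma cell markers tested, 2 were lower (*Mzb1* and *Ighg1*) and 1 higher (*Prdm1*). Both lower ones passed the filter through the 4 WT libraries, with 1 and 0 of 4 KO libraries above 1 FPKM, so their calls are no evidence of their own. The 11 myeloid markers summed to 0.731 to 22.0 FPKM in KO and 11.6 to 50.2 FPKM in WT, and limma called 0 of the 3 tested (2 lower at an unadjusted p under 0.05, 0 by limma-voom) but 3 lower with the 7 libraries. The 9 CD8 T and NK cell markers summed to 24.9 to 68.7 FPKM in KO and 37.7 to 56.2 FPKM in WT, with *Nkg7* lower. That call was lost with all 9 libraries (limma adjusted p = 0.727), while with the 7 libraries 4 of 5 of these markers were lower. Erythroid markers summed to 0.781 to 4.56 FPKM in KO and 0.443 to 6.85 FPKM in WT, platelet markers to 1.60 to 4.38 FPKM in KO and 1.74 to 3.05 FPKM in WT, with *Gp1ba* higher, and no listed marker was at 0 in all 9 libraries. The limma adjusted p of *Gp1ba* was 0.0497 in the 8 libraries and 0.578 with all 9, where KO 1 measured 0.540 FPKM. *Ms4a1*, which encodes the B cell antigen CD20, was low, at 0.096 FPKM or less in KO and 0.393 FPKM or less in WT. The part of these cells in the results was not tested. Of 10 Treg and CD4 T cell markers, 1, *Il2ra*, was lower and 0 were higher, against 1 and 2 with the 7 libraries.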

How the data were processed

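RNA was sequenced from sorted splenic Tregs in 5 KO and 4 WT libraries. The submitters' processing notes name CASAVA, fastp and the mm10 genome. Which aligner, counting tool, annotation, strand setting and versions were used was not given in the sources used here. The authors deposited FPKM for 25500 entries. Whole reads, within 0.01, were recovered for 24387 entries (95.6%) from FPKM, GENCODE M21 exon length and 1 constant per library, and served an alternative. *Smad2* did not come out whole. FPKM under 1 rest on few reads and are imprecise.

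Groups came from the sample labels. KO 1 was left out of the comparison because the normalized values that accompany the study cover KO 2 to KO 5, with no reason given for its absence in the sources used here. Genes above 1 FPKM in at least 4 libraries were tested by limma-trend (limma 3.58.1, R 4.3.3) on log2(FPKM + 1) values, called at a Benjamini-Hochberg adjusted p under 0.05. Exact permutation tests were two-sided, on the difference of mean log2 values. The limma step was tested on simulated data in which no library was shifted as WT 1 is. That test does not bear on the imbalance of the 8 libraries. Named genes are the 10 members, in each pathway list up to 4 called genes with the smallest p whose groups do not overlap and up to 3 genes over 50 FPKM that were not called, the 3 genes most alike each called member, and *Hsp90b1*, *Tgfb1*, *Lrrc32* and *Itgb8*. The members and lists were chosen with earlier results of these data known. No pair of libraries was identical. Alternatives were all 9 libraries, each library left out, a term for KO 1 and WT 1, the replicate number as a block, a pseudocount of 0.1, no filter, a filter at 5 FPKM, median-ratio and upper quartile scaling, and limma-voom on the reads. Promoters came from RefSeq. Tables and figures used Python 3.11.15, pandas 2.3.3, scipy 1.17.1 and matplotlib 3.10.9.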

Additional observations from a re-analysis of the deposited data

Results flagged for a closer look

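In 8 of 30 sets of 4 or 5 libraries (5 KO, 4 KO without KO 1, and 4 WT, for each of the 10 genes), 1 library lay far from the others of its genotype by Dixon's test. Chance flags about 1 in 20 independent sets, but these sets reuse the same 9 libraries, so the count cannot be set against that share. The share of flags among all genes was not computed. Each library flagged was KO 1 or WT 1. KO 1 was high for *Tgfbr2* (52.1 FPKM), *Smad4* (49.4), *Smad3* (28.6), *Smad2* (20.3), *Tgfbr1* (15.3) and *Smurf2* (12.4), and WT 1 was high for *Ski* (77.1) and *Tgfbr2* (60.9). The other libraries of their genotype spanned 28.7 to 31.2 FPKM for *Tgfbr2* in KO 2 to KO 5 and 31.0 to 33.5 FPKM in WT 2 to WT 4. *Skil*, *Smad7* and *Tgfbr3* had no such library. In the genes flagged, KO 1 stood further above KO 2 to KO 5 than in 51.8% (*Smurf2*) to 83.1% (*Tgfbr2*) of all genes tested. WT 1 stood further above WT 2 to WT 4 than in 77.3% (*Ski*) and 93.4% (*Tgfbr2*) of them.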

How the results depend on the processing

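*Skil*, *Smad7*, *Tgfbr3*, *Tgfbr1* and *Smurf2* stayed lower with an adjusted p under 0.05 in each of 18 planned and 2 added alternatives in which they were tested (*Tgfbr3* fell below the stricter filter), with a highest adjusted p of 0.0402 (*Smurf2*). The added alternatives, limma-voom with all 9 libraries and without WT 1, were chosen after seeing the data. *Smad4* was called higher, and was the 1 member called higher, without WT 1 (0.26, and 0.26 by limma-voom). The same held with a term for KO 1 and WT 1 (0.24) and with the replicate block. These alternatives leave WT 1 out or allow for its shift, so they are not separate evidence for the call. With the block in the 8 libraries, WT 1 has no KO library of its number and does not inform the genotype difference. With each library left out in turn the log2 fold change of *Smad4* was 0.062 to 0.26, and 0 to 1 members were higher. No result changed sign where either setting passed the test. Over the alternatives *Smad2* (−0.16 to 0.059) and *Smad3* (−0.064 to 0.12), not called in any, took either sign. The cause of these shifts was not tested.

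Counts moved more. All 9 libraries gave 395 genes higher and 437 lower, each library left out 327 to 2359 higher and 387 to 2062 lower, the term for KO 1 and WT 1 2377 and 2094, the stricter filter (fewer genes tested) 528 and 471, limma-voom with all 9 libraries 435 and 462, and limma-voom without WT 1 2223 and 2234. Of the pathway list genes, 4 to 29 were higher and 7 to 23 lower with each library left out, 28 and 23 with the term, 19 higher by limma-voom, 8 lower with all 9 libraries, 9 lower by limma-voom with all 9, and 30 higher and 25 lower by limma-voom without WT 1. For the named list genes, 382 alternatives kept the call, 62 lost it and 18 gained it.

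Samples that share a replicate number were not taken as pairs, since their deviations correlated at 0.046, −0.11 and 0.0047 in the 8 libraries. With all 9 libraries KO 1 and WT 1, which stand apart, correlated at 0.87 and the other same-number samples at 0.43, 0.31 and 0.47, but among libraries 2 to 5 samples of different number did so at 0.18 to 0.58. The replicate block gave 1891 genes higher and 1777 lower (1841 and 1607 with all 9 libraries), 26 pathway list genes higher in both, and for *Smad4* 0.25 (adjusted p = 0.0302) and 0.22 (adjusted p = 0.0279, limma), 1 member higher in both. It changed no other member's call. In the 8 libraries WT 1 has no KO library of its number and KO 5 no WT library, so under the block neither informs the genotype difference. With all 9 libraries the same holds for KO 5.

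*Tgfbr3*, with 155 to 511 reads per library, is the member that depth limits most.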
